A study of Mus musculus with 33 samples.

Results

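Imprinted genes are transcribed mainly from 1 of the parental copies, and several of them are known for holding blood stem cells at rest. The 10 genes H19, Igf2, Igf2r, Meg3, Rian, Mirg, Cdkn1c, Peg3, Grb10 and Ndn were taken by their symbols from a list of imprinted genes linked to hematopoietic stem cell (HSC) quiescence. All 10 were found among the 55376 gene symbols counted in each of 33 libraries. Their level is given in CPM, the reads of a gene scaled to the counted total of its library, and differences between groups are log2 fold changes from edgeR with their standard errors (SE).

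HSCs were sorted by surface markers from the bone marrow of old C57BL/6 males of 24 to 29 months, together with their offspring of the myeloid line, granulocyte-monocyte progenitors (GMPs), and of the lymphoid line, common lymphoid progenitors (CLPs). O-WT mice had no treatment, and O-NR mice had nicotinamide riboside (NR), a precursor of the cofactor NAD+, in their drinking water for 4 to 6 weeks. In cohort 2 each of the 3 cell types had 4 O-WT and 4 O-NR libraries (24 in all). Cohort 1 was of HSCs alone, with 2 libraries from O-WT mice, 4 from O-NR mice and 3 from mice called O-NR-RC, whose NR had been withdrawn for 2 months. No group held young mice or another genotype, so all values are of old wild-type animals. A label field names the myeloid cells common myeloid progenitors, whereas the titles and the study's text call them GMPs.

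The libraries held the cells their labels name. The summed level of 6 HSC markers (Slamf1, Mecom, Hlf, Procr, Fgd5 and Meis1) ran from 1470 to 1673 CPM in the HSCs of cohort 2, against 118 to 188 CPM in CLPs and 58.5 to 88.4 CPM in GMPs. The granule genes and other markers of GMPs summed to between 17039 and 19616 CPM in GMPs and to at most 556 CPM elsewhere. Markers of CLPs summed to between 2461 and 4053 CPM in CLPs and to at most 46.8 CPM in the other cells of cohort 2, and to 49.4 to 117 CPM in the HSCs of cohort 1. In those HSCs the HSC markers summed to 849 to 1472 CPM. Counted reads ranged from 4792380 to 23816042 per library.

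Reads on 1964 olfactory and vomeronasal receptor genes, which blood cells are not known to use, were taken as a measure of background. Their sum ran from 1496 to 4657 CPM in the HSCs of cohort 2, from 2108 to 8277 CPM in CLPs and from 854 to 2367 CPM in GMPs. In cohort 1 it was higher, and 4 libraries stood apart at 14229 to 15205 CPM (O-NR replicates 1 and 2, O-NR-RC replicates 2 and 3), while the other 5 held 4431 to 9050 CPM. Values of cohort 1 are therefore given with and without these 4. The cohorts also differed in reads on overlapping genes. Of 442 genes lying inside the exons of a gene on the other strand, 438 had 0 reads in all libraries of cohort 1 and 5 had 0 reads in all libraries of cohort 2, so levels were not compared between cohorts. The labels do not say whether a library is of 1 mouse.

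The genes fall into known roles. Igf2 is a fetal growth factor, Igf2r is the receptor that removes it by carrying it to lysosomes, Grb10 is an adaptor that dampens insulin and IGF receptor signalling, and H19 is the noncoding RNA made beside Igf2 from the other parental copy. Cdkn1c encodes p57, an inhibitor of cyclin-dependent kinases that restrains cell division in HSCs, and Ndn (necdin) and Peg3 encode growth-restraining proteins linked to the p53 pathway. Meg3, Rian and Mirg are long noncoding RNAs made from the maternal copy of the Dlk1-Dio3 locus, where they carry many microRNAs and small nucleolar RNAs, and this locus is known for keeping fetal and adult HSCs at rest.

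Most of these genes were higher in HSCs than in either progenitor. In O-WT mice, 8 of the 10 passed the filter of more than 3 CPM in at least 4 libraries. HSCs exceeded CLPs in 6 of these 8 (Cdkn1c, Ndn, Grb10, Meg3, Rian and Igf2r) at an adjusted p below 0.05, and none was lower. Over all 18830 genes tested, 18.3% were called higher and 12.4% lower in HSCs. Against GMPs all 8 tested were higher in HSCs, where 23.9% of all genes were called higher and 22.0% lower. The median log2 difference of the 8 was 2.15 against CLPs and 2.66 against GMPs, while that of all genes tested was −0.09 and 0.30. Since a gene had to pass the filter in some group, these counts describe the 8 genes tested and not H19 and Igf2, which stayed low. Cdkn1c and Ndn passed it in both treatments, and Mirg in O-WT, through their HSC libraries alone, so they could be tested because they were high there. Progenitor libraries above 3 CPM numbered 0 for Cdkn1c, 1 for Ndn and 3 for Mirg in O-WT, and 1 for Cdkn1c and 0 for Ndn in O-NR. In sorted bulk cells, fewer cells with a transcript and less transcript per cell cannot be told apart.

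In the O-NR libraries, which came from other mice, most of these genes were again higher in HSCs than in either progenitor. Of the 8 genes tested, 7 were higher in HSCs than in CLPs (21.3% of 17664 genes were called higher and 20.4% lower), and all 8 were higher than in GMPs (21.5% higher, 25.6% lower). Their median log2 difference was 1.95 against CLPs and 2.20 against GMPs, against −0.11 and 0.08 for all genes. The added call was Mirg, which was lost with upper quartile scaling (adjusted p = 0.0543) and with 5 of the 12 libraries left out in turn (HSC replicates 1, 3 and 4, CLP replicates 1 and 3, adjusted p from 0.0557 to 0.096). With the receptor background as a covariate Mirg was called in O-WT (0.83, adjusted p = 0.0265) and not in O-NR (0.75, adjusted p = 0.0573).

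**Figure D1:**
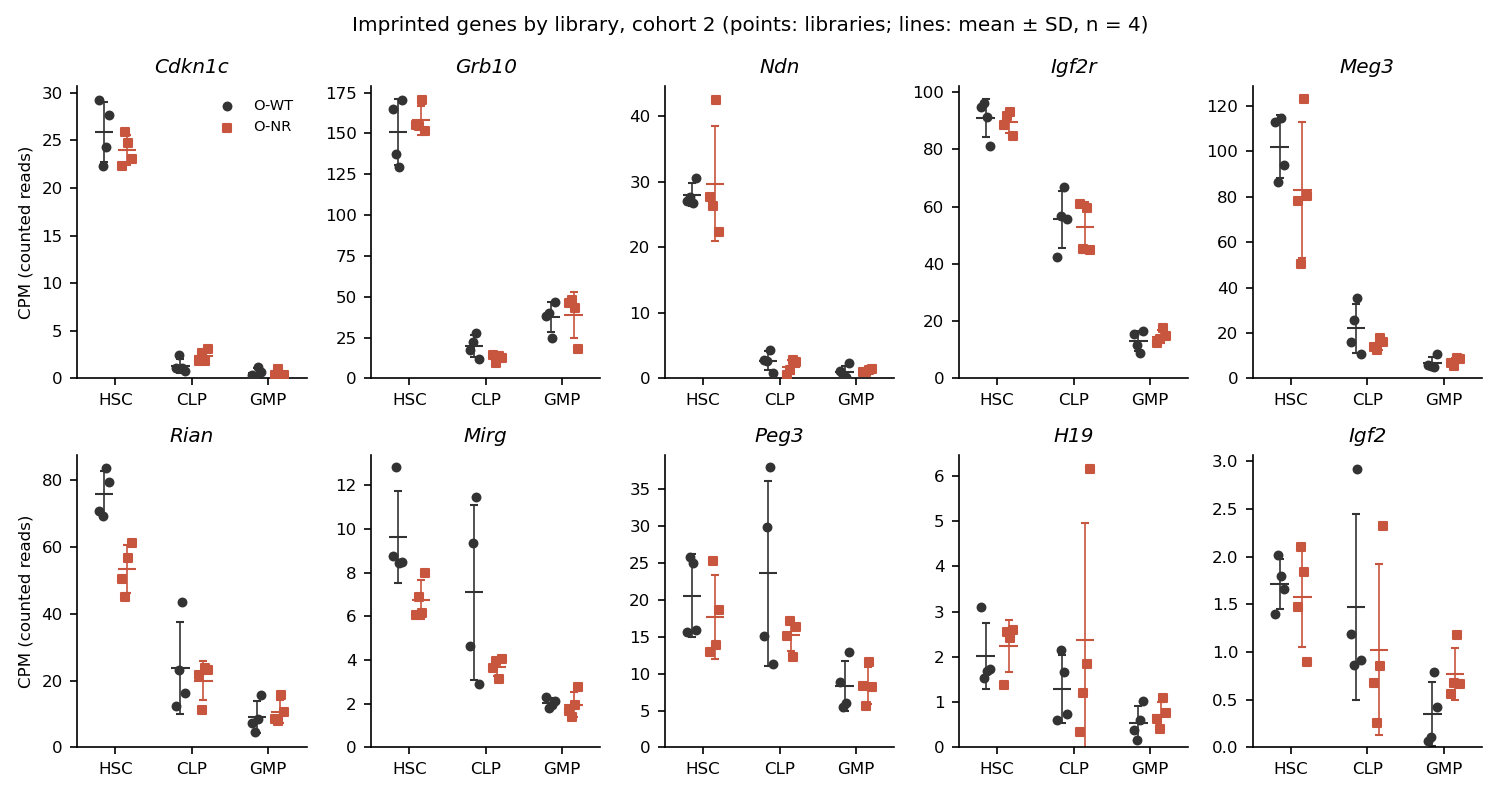
Level of the 10 imprinted genes in each library of cohort 2, in CPM on a linear axis that starts at 0 and differs between genes, by cell type and treatment, with each point 1 library and the lines the mean ± SD of 4. Cdkn1c lies between 22.3 and 29.2 CPM in all HSC libraries and at most at 3.13 CPM in all CLP and GMP libraries, whereas Peg3 overlaps between HSCs and CLPs.

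Per kilobase of exon, the order of levels in the 8 HSC libraries of cohort 2 was Grb10 (mean 17.0 CPM per kb), Cdkn1c (12.2), Igf2r (9.70), Ndn (7.82), Meg3 (5.11), Rian (3.54), Peg3 (1.43), Mirg (1.124), H19 (0.863) and Igf2 (0.288). The ranges over libraries of neighbours in this order overlapped, except that Cdkn1c lay above Igf2r, Rian above Peg3 and H19 above Igf2 in every library. Set against the level per kilobase of the receptor genes in the same library, Grb10 stood at a median of 45.9 times this background, Cdkn1c at 30.9 times, Igf2r at 23.0 times and Ndn at 18.7 times. Meg3 stood at 12.4 times and Rian at 8.41 times. Peg3 (3.30 times), Mirg (2.63 times) and H19 (1.85 times) were near it, and Igf2 was at or below it in 7 of 8 libraries. Of the exon length used for Igf2, 62.8% is shared with Gm49394 on the same strand, where reads of Igf2 may be left out. The level of Igf2 per kilobase, its ratio and its place below H19 are therefore uncertain and may be too low.

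**Figure D2:**
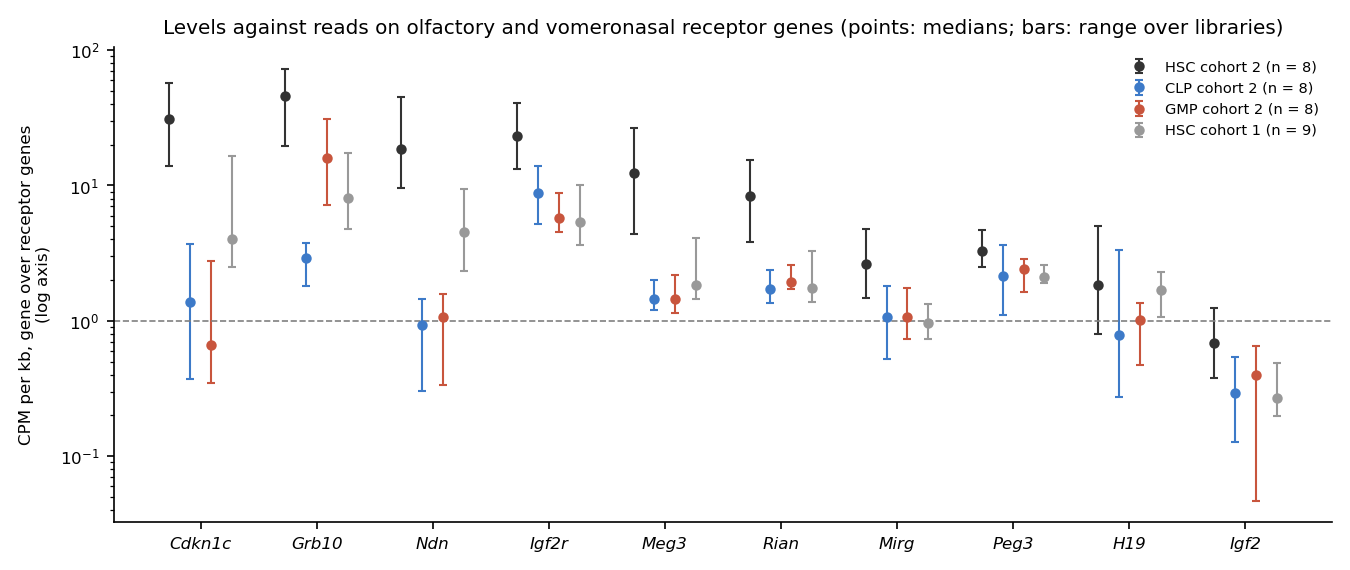
Level per kilobase of each imprinted gene divided by the level per kilobase of the olfactory and vomeronasal receptor genes in the same library, on a log axis, with points at the median and bars over the range of the libraries of each cell type of cohort 2 and of the HSCs of cohort 1, and a dashed line at 1 marking equal levels. Grb10, Cdkn1c, Igf2r and Ndn are far above 1 in HSCs of cohort 2, with median ratios of 45.9, 30.9, 23.0 and 18.7. Igf2 is at or below 1 in all CLP and GMP libraries, on a length that includes bases shared with Gm49394.

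Cdkn1c, the cell cycle inhibitor p57 (chr7:143458339-143461050, minus strand, GRCm38), showed the widest gap of the tested genes between HSCs and GMPs in both treatments and between HSCs and CLPs in O-WT, while Ndn and Grb10 had a wider one between HSCs and CLPs in O-NR. Its level was 29.2, 22.3, 24.3 and 27.7 CPM in O-WT HSCs, 1.07, 2.44, 1.04 and 0.746 CPM in O-WT CLPs and 0.321, 0.165, 1.19 and 0.681 CPM in O-WT GMPs. In O-NR mice it was 22.3, 25.8, 24.7 and 23.0 CPM in HSCs, 1.81, 2.65, 1.85 and 3.13 CPM in CLPs and 0.352, 0.939, 0.235 and 0.333 CPM in GMPs. No HSC library came near a progenitor library in either treatment. Of all genes tested, 17.9% in O-WT and 22.0% in O-NR had every HSC library above every CLP library. For GMPs the shares were 31.6% and 32.9%. Behind the Cdkn1c levels stood 188 to 401 reads in HSCs, 5 to 31 in CLPs and 3 to 18 in GMPs, so the progenitor values carry wide counting error. The log2 difference of HSCs was 4.44 (SE 0.38, adjusted p = 1.85e-11) against CLPs and 5.20 (SE 0.40, adjusted p = 5.16e-13) against GMPs in O-WT, and 3.29 (SE 0.29) and 5.33 (SE 0.34) in O-NR. Cdkn1c passed the filter through its HSC libraries alone, so the filter favoured this direction and the adjusted p values are no support for it. In the GMPs the ratio of Cdkn1c to the receptor background had a median of 0.661. Exons of Cdkn1c share 30.7% of their bases with Gm44732 on the other strand, a stretch that the counts of cohort 1 may leave out.

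The other genes of the p57 family are given for comparison. Cdkn1a (p21), the inhibitor induced by p53, was highest in CLPs, with a mean of 33.7 CPM over 8 libraries against 5.03 CPM in HSCs and 5.71 CPM in GMPs. It was lower in HSCs than in CLPs by a log2 difference of −2.66 (SE 0.27) in O-WT and −2.92 (SE 0.25) in O-NR. Cdkn1b (p27) averaged 46.4, 35.0 and 26.1 CPM in HSCs, CLPs and GMPs, and its log2 difference of HSCs from GMPs was 0.60 in O-WT and 0.49 in O-NR, both called.

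Grb10, the adaptor that dampens insulin and IGF signalling (chr11:11930508-12038683, minus strand), had its highest level in HSCs and its lowest in CLPs. HSCs of O-WT held 165, 138, 129 and 171 CPM, CLPs 17.4, 22.5, 27.5 and 11.9 CPM and GMPs 38.3, 39.9, 24.9 and 47.0 CPM. The O-NR libraries held 155, 155, 171 and 151 CPM in HSCs, 14.5, 9.16, 13.8 and 12.3 CPM in CLPs and 46.1, 48.1, 42.9 and 18.0 CPM in GMPs. The 3 cell types did not overlap in O-NR, and in O-WT only CLPs and GMPs did. All CLP libraries lay below all GMP libraries for 16.5% of all genes tested in O-NR, and the shares for HSCs are given with Cdkn1c. For Grb10, HSCs were 8.63-fold above CLPs (log2 3.11, SE 0.23) and 3.34-fold above GMPs (log2 1.74, SE 0.21) in O-WT.

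Between the progenitors Grb10 was the single gene of the set that was lower in CLPs than in GMPs, with a log2 difference of −1.37 (SE 0.22, adjusted p = 6.72e-06) in O-WT and −1.91 (SE 0.22, adjusted p = 8.41e-08) in O-NR. In O-WT mice 6 others were higher in CLPs than in GMPs (35.7% of all genes were called higher and 25.3% lower), and in O-NR 5 were (24.3% higher, 25.7% lower). These 5 in O-NR were Cdkn1c, Igf2r, Meg3, Rian and Peg3, and the 6 in O-WT were Igf2r, Mirg, Meg3, Peg3, Ndn and Rian. The call of Ndn was marginal (adjusted p = 0.0487) and was lost with 5 of the 8 CLP and GMP libraries left out in turn (adjusted p from 0.088 to 0.175), with relative log expression scaling (adjusted p = 0.0538) and with DESeq2 (adjusted p = 0.161). Without GMP replicate 3, Cdkn1c was called in O-WT as well (1.42, adjusted p = 0.0148). In O-NR the call of Rian was lost without GMP replicate 1 or 2 (adjusted p = 0.0577 and 0.0643) and that of Peg3 without GMP replicate 2 (adjusted p = 0.0976). With the receptor background as a covariate, 3 of the 7 calls in O-WT remained (Grb10, Igf2r and Meg3), and in O-NR those of Rian (adjusted p = 0.37) and Peg3 (adjusted p = 0.277) were lost, as they were without a filter (adjusted p = 0.16 and 0.218).

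Igf2r, the receptor that clears IGF2 (chr17:12682406-12769664, minus strand), decreased in steps from HSCs over CLPs to GMPs. O-WT libraries held 94.7, 96.4, 91.4 and 81.3 CPM in HSCs, 42.5, 56.9, 67.0 and 55.8 CPM in CLPs and 15.5, 11.6, 9.01 and 16.6 CPM in GMPs. O-NR libraries held 88.6, 91.8, 93.2 and 84.8 CPM in HSCs, 61.1, 45.4, 59.7 and 44.8 CPM in CLPs and 12.2, 13.7, 17.8 and 14.7 CPM in GMPs. All 3 cell types were apart in both treatments. All CLP libraries lay above all GMP libraries for 35.5% of all genes tested in O-WT and 28.6% in O-NR. The shares for HSCs are given with Cdkn1c. For Igf2r the log2 difference of HSCs from CLPs was 0.83 (SE 0.19, adjusted p = 0.000614) in O-WT and 0.74 (SE 0.14) in O-NR. That of CLPs from GMPs was 1.67 (SE 0.19) and 1.59 (SE 0.15). Airn, the noncoding RNA made across the Igf2r start from the paternal copy, ran from 9.39 to 13.2 CPM in HSCs, from 4.53 to 12.3 CPM in CLPs and from 1.15 to 3.15 CPM in GMPs.

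Promoters of Grb10 and Igf2r are shown because these 2 genes had the highest levels of the growth regulators in HSCs. The stretches printed also differ from most promoters in the number of CpG sites, the letters that DNA methylation can mark. CpG sites are in capitals, and methylation was not measured. The sequences are those of RefSeq (GRCm38.p6), from 250 bases before to 50 bases after the start, 5′ to 3′ on the gene's strand.
Grb10, chr11:12037371-12037670, minus strand: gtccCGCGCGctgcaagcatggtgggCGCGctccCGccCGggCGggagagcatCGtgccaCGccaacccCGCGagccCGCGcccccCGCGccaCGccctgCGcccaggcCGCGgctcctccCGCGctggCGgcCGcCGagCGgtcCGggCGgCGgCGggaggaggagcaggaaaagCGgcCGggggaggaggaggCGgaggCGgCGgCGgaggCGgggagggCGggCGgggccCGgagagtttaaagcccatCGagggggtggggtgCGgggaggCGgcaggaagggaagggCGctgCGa
Igf2r, chr17:12769657-12769956, minus strand: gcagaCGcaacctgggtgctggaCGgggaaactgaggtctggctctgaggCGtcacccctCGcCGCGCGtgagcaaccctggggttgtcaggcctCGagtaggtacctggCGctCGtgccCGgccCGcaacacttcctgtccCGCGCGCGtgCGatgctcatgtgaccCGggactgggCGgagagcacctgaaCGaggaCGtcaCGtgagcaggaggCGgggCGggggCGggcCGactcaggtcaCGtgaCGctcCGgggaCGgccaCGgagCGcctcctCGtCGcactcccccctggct
The Grb10 promoter printed held 45 CpG sites in 300 bases, a number that 1.93% of 32851 promoters reached. Another Grb10 promoter entry (chr11:12027922-12028221) held 9, which 45.8% reached, and which start the HSCs used was not tested. The Igf2r promoter held 34, which 7.73% reached. The median promoter held 7. Promoters were found for 8 of the 10 genes, and H19 and Cdkn1c had no entry. That of Rian held 0 CpG sites, that of Ndn 11 and that of Mirg 10.

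Ndn, the growth suppressor necdin (chr7:62346569-62350262, plus strand), was also far lower in both progenitors. HSCs held 27.1, 27.6, 26.8 and 30.6 CPM in O-WT and 27.7, 26.3, 42.5 and 22.4 CPM in O-NR. CLPs held 2.74, 2.73, 4.38 and 0.8293 CPM in O-WT and 0.566, 1.28, 2.84 and 2.55 CPM in O-NR, and no GMP library exceeded 2.30 CPM. The HSC libraries lay above every progenitor library, as they did for the shares of all genes given with Cdkn1c. HSCs were 12.3-fold above CLPs (log2 3.62, SE 0.39) and 25.0-fold above GMPs (log2 4.64, SE 0.41) in O-WT, and the log2 differences were 4.07 (SE 0.34) and 4.42 (SE 0.34) in O-NR. Ndn also passed the filter through its HSC libraries alone, which favoured this direction. In CLPs the ratio of Ndn to the receptor background had a median of 0.931.

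Peg3, a zinc finger protein of the imprinted cluster at the start of chromosome 7 (chr7:6703892-6730431, minus strand), was the exception. It was at 15.6, 25.8, 25.0 and 15.9 CPM in O-WT HSCs and at 15.1, 29.9, 38.0 and 11.4 CPM in O-WT CLPs. GMPs of O-WT held 8.86, 5.44, 6.03 and 12.9 CPM. The range of the CLP libraries held that of the HSC libraries, and the log2 difference was −0.04 (95% interval −0.52 to 0.43) in O-WT and 0.14 (−0.28 to 0.56) in O-NR. Against GMPs it was 0.99 (SE 0.25, adjusted p = 0.00124) in O-WT and 0.76 (SE 0.22, adjusted p = 0.00486) in O-NR. Peg3 was also the single gene of the 10 whose level over the 8 HSC libraries of cohort 2 moved with the receptor background past adjustment over the 10 relations (Pearson's r = 0.92, permutation p = 0.0028, adjusted p = 0.028, Spearman's rho = 0.90, permutation p = 0.0046, adjusted p = 0.046). Without the 2 libraries farthest from the median of the background, r was 0.86. With the receptor background as a covariate, the log2 difference of HSCs from CLPs was 0.33 (adjusted p = 0.23) in O-WT and 0.21 (adjusted p = 0.524) in O-NR, and that from GMPs was 0.56 and 0.68.

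H19 and Igf2 had the lowest levels of the 10 in HSCs, with median ratios to the receptor background of 1.85 and 0.685 in HSCs, 0.792 and 0.295 in CLPs and 1.02 and 0.401 in GMPs. H19 (chr7:142575529-142578143, minus strand) held 3.10, 1.54, 1.69 and 1.73 CPM in O-WT HSCs and 1.38, 2.55, 2.41 and 2.59 CPM in O-NR HSCs, against 0.595 to 2.15 CPM in O-WT CLPs and 0.165 to 1.02 CPM in O-WT GMPs. In O-NR CLPs it was at 0.34, 1.20, 1.85 and 6.14 CPM, the last on 53 reads. Igf2 (chr7:142650766-142666816, minus strand) held 1.40, 2.02, 1.79 and 1.66 CPM in O-WT HSCs, 0.862 to 2.92 CPM in O-WT CLPs and 0.0642 to 1.17 CPM in all GMPs. Neither reached the filter for a test across all genes in cohort 2, and without the filter both were called higher in HSCs than in GMPs of O-WT (adjusted p = 0.0478 for H19 and 0.0353 for Igf2) but not of O-NR (adjusted p = 0.0669 and 0.621). Exact permutation tests of HSCs against GMPs in O-WT gave p = 0.029 for both genes, the smallest that 4 libraries against 4 allow. Adjusted over all such tests, p was 0.078 for both. For Igf2, 62.8% of exon bases are shared with Gm49394 on the same strand, so its reads may be counted there or left out.

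Meg3, Rian and Mirg lie in this order on the plus strand of chromosome 12 (chr12:109541001-109571726, chr12:109603940-109661716 and chr12:109729764-109749460). Meg3 and Rian were higher in HSCs than in either progenitor, while Mirg in O-WT passed the test against GMPs only. For Meg3, O-WT HSCs held 113, 86.7, 115 and 93.9 CPM, CLPs 16.2, 25.7, 35.3 and 10.9 CPM and GMPs 6.03, 5.66, 5.24 and 10.7 CPM. For Rian, O-WT HSCs held 70.7, 69.2, 83.5 and 79.5 CPM, CLPs 12.5, 23.1, 43.4 and 16.3 CPM and GMPs 7.45, 4.50, 8.48 and 15.7 CPM. In both genes every HSC library lay above every progenitor library. Of all genes tested in O-WT, 17.9% had every HSC library above every CLP library and 31.6% above every GMP library.

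For Mirg, O-WT HSCs held 8.76, 12.8, 8.44 and 8.49 CPM, CLPs 4.64, 9.33, 11.5 and 2.90 CPM and GMPs 2.31, 1.81, 1.92 and 2.13 CPM. Its HSC and CLP libraries overlapped, and its GMP libraries lay below both. The log2 difference of HSCs from CLPs in O-WT was 2.42 (SE 0.23) for Meg3, 1.87 (SE 0.25) for Rian and 0.63 (SE 0.32, adjusted p = 0.132) for Mirg. Against GMPs it was 3.63 (SE 0.24), 2.81 (SE 0.26) and 1.91 (SE 0.33), all called. Mirg passed the filter in O-WT through its HSC libraries alone, which favoured its call. In O-NR the differences from CLPs were 2.48, 1.42 and 0.83, and those from GMPs 3.27, 2.06 and 1.51.

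**Figure D3:**
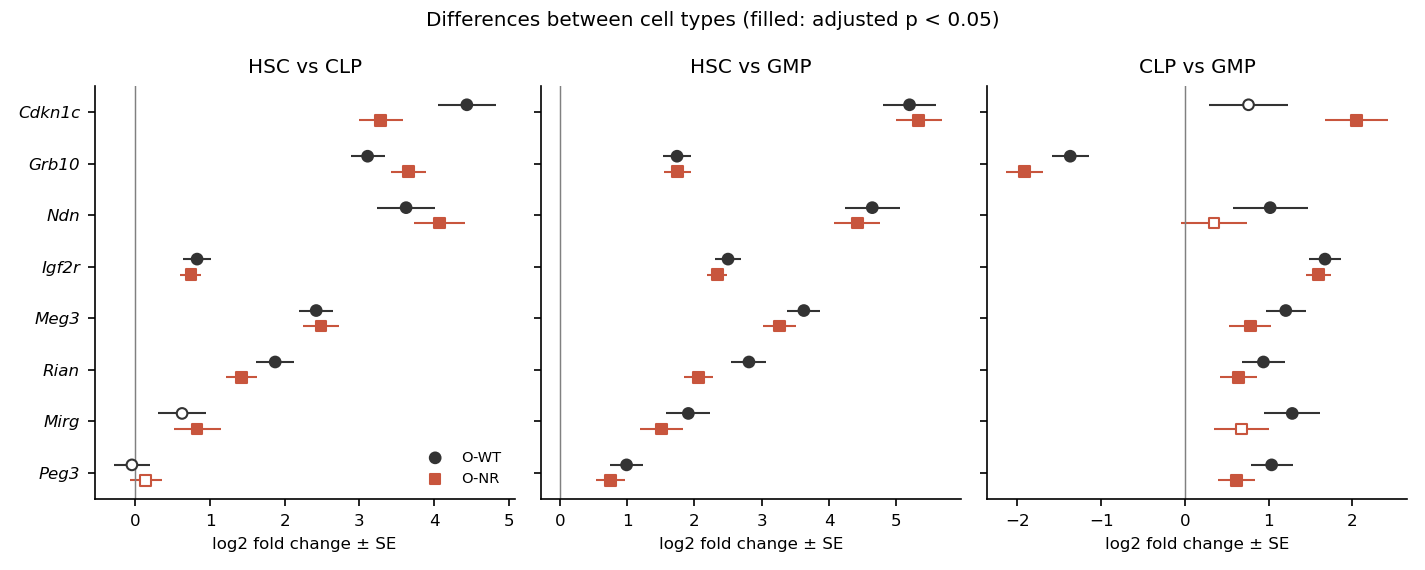
Log2 difference between cell types for the 8 imprinted genes tested, in O-WT and in O-NR libraries of cohort 2, with bars of 1 SE to each side, filled points for an adjusted p below 0.05 and a line at 0. Cdkn1c, Ndn, Grb10 and Meg3 lie furthest above 0 for HSCs against CLPs, Peg3 lies near 0 (−0.04 and 0.14), and Grb10 is below 0 for CLPs against GMPs.

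The start of Meg3 is shown beside that of Peg3, since both hold the 8 letters TGACGTCA, the binding sequence of cAMP response factors, printed in capitals (GRCm38.p6, RefSeq, 300 bases, 5′ to 3′).
Meg3, chr12:109540746-109541045, plus strand: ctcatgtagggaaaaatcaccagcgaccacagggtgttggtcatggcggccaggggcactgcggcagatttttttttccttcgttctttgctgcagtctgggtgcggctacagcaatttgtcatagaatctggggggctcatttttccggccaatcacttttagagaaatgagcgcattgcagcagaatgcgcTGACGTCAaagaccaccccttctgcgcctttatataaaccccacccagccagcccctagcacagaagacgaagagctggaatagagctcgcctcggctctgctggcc
Peg3, chr7:6730370-6730669, minus strand: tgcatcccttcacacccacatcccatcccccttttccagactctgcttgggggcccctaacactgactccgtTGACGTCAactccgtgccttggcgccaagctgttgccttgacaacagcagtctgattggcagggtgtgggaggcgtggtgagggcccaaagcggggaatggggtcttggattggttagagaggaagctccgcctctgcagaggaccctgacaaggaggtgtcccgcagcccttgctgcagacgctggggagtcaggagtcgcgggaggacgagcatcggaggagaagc
The letters read the same on both strands. They were present in 588 of 32851 promoters (1.79%), and were looked for after these promoters had been read, so their presence in 2 of the 8 genes is a description only. Another Meg3 promoter entry (chr12:109545148-109545447) lacks them. Meg3 and Peg3 differed in pattern between HSCs and CLPs, as given above.

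The noncoding RNAs also carry microRNAs, the short RNAs that bind messenger RNAs through a seed at bases 2 to 8. Of the hairpins in RefSeq, 6 lay wholly in exons of these genes, 4 in Mirg, 1 in Meg3 and 1 in H19. They give 11 mature arms with 11 distinct seeds, so no seed is shared among these arms. Of the 1738 mature microRNAs listed, 5 hold the seed of miR-410-3p, itself included. An example from Meg3 and 3 from Mirg are shown with the seed in capitals, to show what these transcripts contain.
miR-770-5p in Meg3: aGCACCACgugucugggccacg
miR-134-5p in Mirg: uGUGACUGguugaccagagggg
miR-377-3p in Mirg: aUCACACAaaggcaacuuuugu
miR-410-3p in Mirg: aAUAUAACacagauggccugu
The mature forms were not measured, as counts are of the host genes' exons.

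Cell type differences depend on how libraries are scaled. Other scalings moved the median log2 difference of all genes by up to 0.53 (CLPs against GMPs in O-WT, scaling on genes over 30 CPM), and the share of higher calls among all calls of HSCs against GMPs in O-WT from 52.0% to between 41.7% and 71.9%. For CLPs against GMPs that share went from 58.5% to as much as 81.7% in O-WT and from 48.6% to 75.0% in O-NR, for HSCs against GMPs in O-NR from 45.7% to 67.9%, and for HSCs against CLPs in O-WT from 59.5% to 49.1%. The 6 and 8 calls of the imprinted genes for HSCs in O-WT kept their direction under every scaling tried.

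With NR, Rian was lower in HSCs and was the one imprinted gene called. In the HSCs of cohort 2, Rian was at 70.7, 69.2, 83.5 and 79.5 CPM in O-WT and at 50.4, 44.9, 56.7 and 61.2 CPM in O-NR, resting on 405 to 1151 reads per library. Every O-NR library lay below every O-WT library. The log2 fold change was −0.47 (SE 0.13, 95% interval −0.72 to −0.23), with an unadjusted p of 0.00177 and an adjusted p of 0.943. At an unadjusted p below 0.01, 1 of the 8 genes tested was called lower, where 0.734% of 17307 genes were called in either direction and 0.358% lower. No gene passed an adjusted p of 0.05 in this comparison (smallest adjusted p = 0.0662), and 666 had an unadjusted p below 0.05. In counts simulated for this comparison, 0.911% of the unchanged genes had an unadjusted p below 0.01. The 0.734% called here is not above that share, so the Rian call alone does not show an effect of NR. The methods of the study also name a fold change. With one above 1.5 asked as well, 0 of the 8 genes were called, since Rian was 1.39-fold lower. DESeq2 on the same genes gave Rian an unadjusted p of 0.00129 and an adjusted p of 0.339.

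The other RNAs of the locus did not pass this threshold. Mirg was at 8.76, 12.8, 8.44 and 8.49 CPM in O-WT and at 6.05, 6.87, 6.16 and 7.97 CPM in O-NR HSCs, also without overlap, with a log2 fold change of −0.47 (SE 0.23, adjusted p = 0.996). Meg3 was at 113, 86.7, 115 and 93.9 CPM in O-WT and at 78.2, 50.5, 123 and 80.2 CPM in O-NR. Its O-NR replicate 3 was the highest of all 8 libraries while the other 3 were the lowest, and the log2 fold change was −0.25 (SE 0.21, adjusted p = 0.996). Without that library it was −0.54 and was called, with an unadjusted p of 0.00932. Libraries of O-NR below all libraries of O-WT were seen for 1.59% of the genes tested. The exact permutation test gave p = 0.029 for Rian and for Mirg, the smallest possible with 4 against 4. It was run 120 times, over the 10 genes and 12 comparisons, and 44 of these p-values were below 0.05. Adjusted over the 120 tests, p was 0.078 for Rian and for Mirg, and no test passed 0.05.

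**Figure D4:**
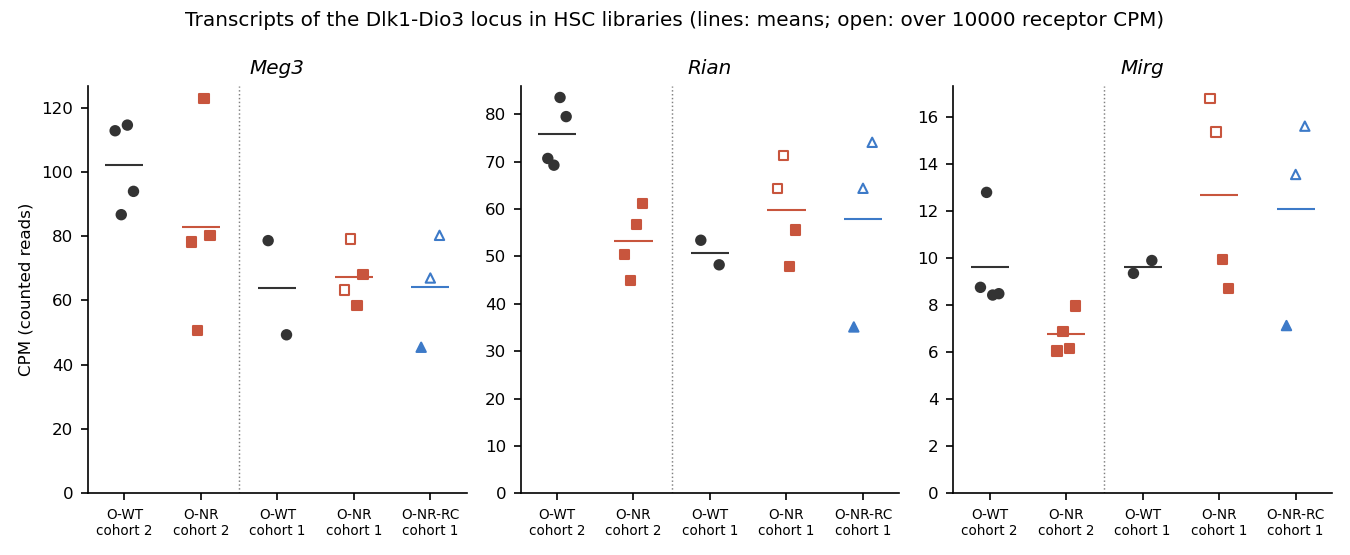
Level of Meg3, Rian and Mirg in each HSC library of both cohorts, in CPM, with each point 1 library, open points the 4 libraries over 10000 receptor CPM and lines the group means. In cohort 2 the O-NR libraries of Rian (44.9 to 61.2 CPM) lie below those of O-WT (69.2 to 83.5 CPM), and in cohort 1 the groups overlap.

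The Rian difference kept an unadjusted p below 0.01 under 4 other scalings, DESeq2 and each library left out (log2 fold change −0.37 to −0.53, all below a fold of 1.5). It missed the threshold without a filter on low genes (−0.42, with an unadjusted p of 0.024) and in a single fit of all 24 libraries (−0.44, with an unadjusted p of 0.0566). With the receptor background as a covariate the adjusted p was 0.0472, and Meg3 was then called as well (−0.42, adjusted p = 0.411). In that fit 22 of all genes tested were lower at an adjusted p below 0.05, against 0 in the main fit. Markers of B and plasma cells also differed in range, at 71.4 to 731 CPM in O-WT and 22.9 to 123 CPM in O-NR HSCs, although the sort gated out cells with the B cell marker B220, and their part in the Rian values was not tested.

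The growth regulators and the cell cycle inhibitor gave small differences with NR in HSCs. Cdkn1c averaged 25.9 ± 3.17 CPM (SD, n = 4) in O-WT and 23.97 ± 1.60 CPM (SD, n = 4) in O-NR HSCs, a log2 fold change of −0.09 with a 95% interval of −0.35 to 0.17. Grb10 averaged 151 ± 20.3 and 158 ± 8.65 CPM, with a log2 fold change of 0.09 (−0.16 to 0.35). Igf2r averaged 91.0 ± 6.77 and 89.6 ± 3.74 CPM, with 0.01 (−0.18 to 0.21), the narrowest interval of the set. For Ndn the log2 fold change was 0.13 (−0.22 to 0.47) and for Peg3 −0.19 (−0.58 to 0.20). None of these 5 reached an unadjusted p of 0.05.

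In the progenitors none of these genes was called. In CLPs 6 genes were tested and 0 called (0.431% of 20186 genes were), and in GMPs 5 were tested and 0 called (0.99% of 13437 genes). Grb10 in CLPs had the smallest p, with 17.4, 22.5, 27.5 and 11.9 CPM in O-WT and 14.5, 9.16, 13.8 and 12.3 CPM in O-NR, a log2 fold change of −0.50 (SE 0.24, adjusted p = 0.999). Rian was at 12.5, 23.1, 43.4 and 16.3 CPM in O-WT CLPs and at 21.8, 11.2, 23.7 and 23.1 CPM in O-NR CLPs, with a log2 fold change of −0.04 (−0.54 to 0.45). In GMPs it was at 7.45, 4.50, 8.48 and 15.7 CPM in O-WT and at 8.58, 7.91, 15.6 and 10.5 CPM in O-NR, with 0.24 (−0.34 to 0.82).

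Whether NR acted differently between cell types was tested as an interaction over the 24 libraries. For HSCs against CLPs 0 of 8 genes passed the threshold (0.42% of 20470 genes did), and for HSCs against GMPs 0 of 8 did (0.132%). The smallest p for HSCs against CLPs was that of Cdkn1c, with a difference of effects of −1.08 (SE 0.49, adjusted p = 1), which rests on CLP libraries with 5 to 31 reads. For Rian the difference of the HSC effect was −0.39 (SE 0.33) from CLPs and −0.66 (SE 0.33, adjusted p = 0.9999) from GMPs, so an effect particular to HSCs was not shown. Without GMP O-WT replicate 4 the latter was −0.93 and was called (adjusted p = 0.889), as was that of Cdkn1c without CLP O-WT replicate 2 (−1.51, with an unadjusted p of 0.00683).

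**Figure D5:**
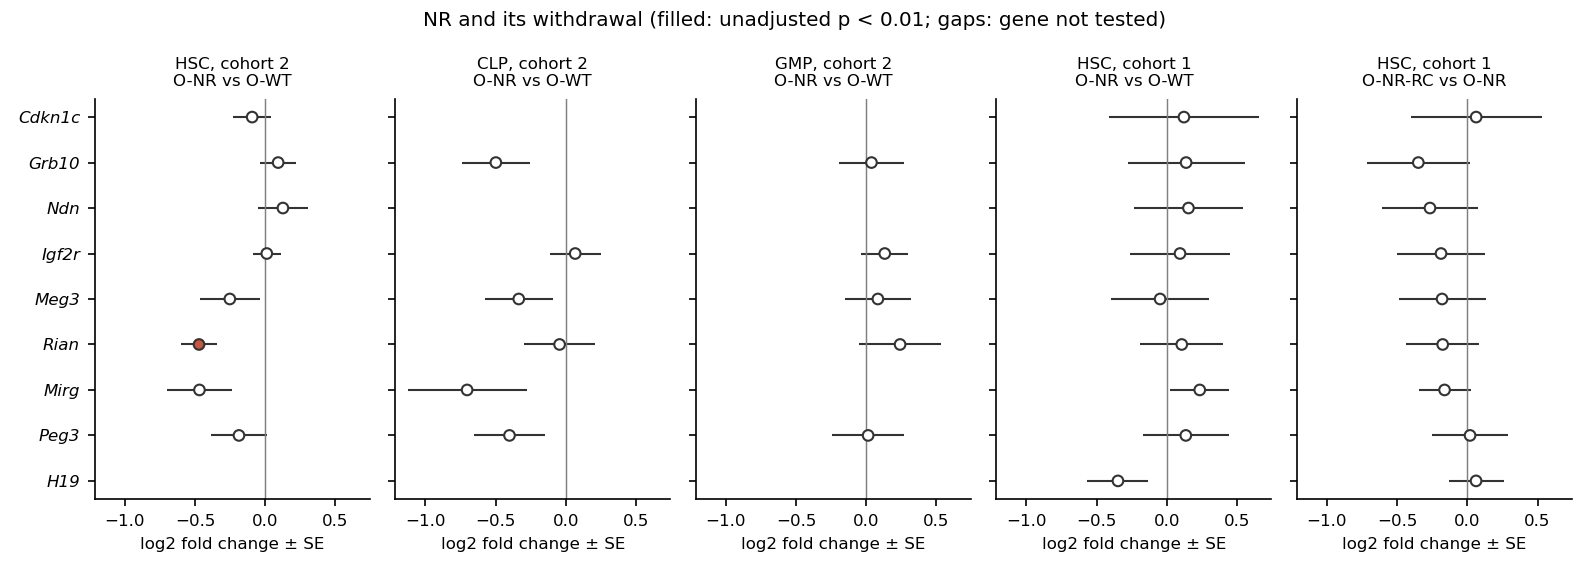
Log2 fold change of O-NR against O-WT for each imprinted gene tested, by cell type and cohort, and of O-NR-RC against O-NR, with bars of 1 SE to each side, a filled point for an unadjusted p below 0.01 and a line at 0. Rian in HSCs of cohort 2 (−0.47, SE 0.13) is the one filled point, while in HSCs of cohort 1 its estimate is 0.11.

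Cohort 1 addressed NR and its withdrawal in HSCs with fewer libraries. Of the 9 genes tested, 0 were called for O-NR against O-WT (0.0358% of 30694 genes), 0 for O-NR-RC against O-NR (0.0293%) and 0 for O-NR-RC against O-WT (0.0554%). No gene passed adjustment in any of the 3 comparisons, and 122, 78 and 182 genes had an unadjusted p below 0.05. In counts simulated for O-NR against O-WT, 7.22% of genes changed by a log2 fold of 1 passed an adjusted p of 0.05. The share was 67.3% for the same comparison in cohort 2. A missing call in cohort 1 therefore says little about changes of that size. Rian was at 53.4 and 48.2 CPM in O-WT, at 64.3, 71.3, 47.9 and 55.6 CPM in O-NR and at 35.1, 64.4 and 74.1 CPM in O-NR-RC. Its log2 fold change with NR was 0.11 (95% interval −0.47 to 0.69). It was −0.03 without O-WT replicate 2. In the 9 libraries of cohort 1 Rian stood at a median of 1.75 times the receptor background and Meg3 at 1.84 times. Mirg was at 0.96 times, so all 3 RNAs of the locus were near this background.

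In this cohort Rian, Mirg and Peg3 were higher in the libraries with the most receptor reads. The 4 libraries over 10000 receptor CPM held 64.3 to 74.1 CPM of Rian against 35.1 to 55.6 CPM in the other 5, 13.6 to 16.8 against 7.14 to 9.94 CPM of Mirg and 60.3 to 67.9 against 22.5 to 42.7 CPM of Peg3. Of all genes tested in this cohort, 59.2% were higher in each of the 4 than in each of the other 5, so 3 of 10 is below the share of all genes. The summed HSC markers were lower in the 4, at 849 to 981 against 1147 to 1472 CPM. The other 7 imprinted genes overlapped between these sets. As each set has fewer than 6 libraries, no correlation over them is given. Without the 4 libraries, which leaves both O-WT libraries, 2 from O-NR and 1 from O-NR-RC, the log2 fold change of Rian with NR was 0.15 (adjusted p = 0.762). In the same fit Cdkn1c (0.61, adjusted p = 0.385) and Ndn (0.52, adjusted p = 0.27) passed the unadjusted threshold as higher with NR, where 1.89% of 25195 genes were called in either direction, and so did Cdkn1c in the single O-NR-RC library against O-WT (0.96, adjusted p = 0.0586), where 10.2% were. That library is assumed there to vary like the other groups. The values with NR of the other genes, none called, were 0.42 (SE 0.15, adjusted p = 0.547) for Grb10, 0.33 (SE 0.14, adjusted p = 0.615) for Igf2r, 0.10 for Meg3, 0.08 for Mirg, −0.09 for Peg3 and −0.36 for H19. For O-NR-RC against O-NR the 9 genes ran from −0.39 (Rian) to 0.35 (Cdkn1c), with 0 called.

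Grb10 and Igf2r were higher in every O-NR library than in every O-WT library of cohort 1, as were 1.34% of all genes tested. Cdkn1c was at 18.8 and 12.5 CPM in O-WT, at 12.8, 12.6, 20.4 and 23.6 CPM in O-NR and at 24.9, 12.9 and 15.6 CPM in O-NR-RC, and the groups overlapped. Grb10 was at 111 and 111 CPM in O-WT, at 119, 123, 125 and 147 CPM in O-NR and at 95.1, 110 and 116 CPM in O-NR-RC. Its O-NR libraries lay above all others, yet the log2 fold change was 0.14 (SE 0.42) with NR and −0.35 (SE 0.37) after withdrawal, neither called. All O-NR-RC libraries lay below all O-NR libraries for 0.404% of genes. With the receptor background as a covariate, Grb10 was called lower after withdrawal (−0.29, SE 0.09, adjusted p = 0.689), where 0.681% of genes were called lower. Igf2r was at 79.3 and 75.2 CPM in O-WT, at 91.2, 80.1, 91.1 and 87.7 CPM in O-NR and at 62.7, 95.6 and 91.7 CPM in O-NR-RC, with a log2 fold change of 0.09 (SE 0.36) with NR. An exact permutation test cannot go below 0.133 with 2 against 4 libraries or below 0.0571 with 4 against 3.

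Meg3, Ndn and H19 overlapped between the groups of cohort 1. Meg3 was at 78.6 and 49.3 CPM in O-WT, at 63.3, 79.1, 58.4 and 68.1 CPM in O-NR and at 45.4, 67.0 and 80.2 CPM in O-NR-RC. Ndn was at 22.3 and 25.2 CPM in O-WT, at 20.8, 26.2, 29.5 and 32.7 CPM in O-NR and at 24.9, 22.5 and 22.9 CPM in O-NR-RC. Their log2 fold changes with NR were −0.05 (SE 0.35) and 0.15 (SE 0.39). H19, which passed the filter in this cohort only, was at 5.94 and 6.63 CPM in O-WT, at 6.25, 6.46, 4.47 and 4.47 CPM in O-NR and at 3.82, 7.60 and 6.86 CPM in O-NR-RC, with a log2 fold change of −0.35 (SE 0.22, adjusted p = 0.9998) with NR.

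Over the HSCs of both cohorts, with a term for cohort, 0 of 9 genes tested were called (0.115% of 22682 genes). Rian had a log2 fold change of −0.20 (SE 0.14, adjusted p = 1). The difference of the NR effect between cohorts was called for 0 of the 9 (0.128%), at −0.59 (SE 0.26, adjusted p = 0.976) for Rian and −0.73 (SE 0.32, adjusted p = 0.976) for Mirg. The Rian value passed 0.01 under 5 alternatives, among them scaling by library totals alone (−0.74, adjusted p = 0.912). For Grb10 the difference between cohorts was −0.05 (SE 0.32) and for Ndn −0.02 (SE 0.37).

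Genes of 1 locus were compared over the libraries within groups. In the 8 HSC libraries of cohort 2, Meg3 and Rian had Pearson's r = 0.64 (permutation p = 0.080, adjusted p = 0.16) and Spearman's rho = 0.69 (permutation p = 0.069, adjusted p = 0.14), and r fell to 0.34 without the 2 libraries farthest from the median. Meg3 and Mirg had r = −0.38, Rian and Mirg −0.16 and H19 and Igf2 −0.27. None of these 4 relations passed adjustment over 8 relations. In the 9 libraries of cohort 1, 3 of the 4 did (Meg3 with Rian, Rian with Mirg, and H19 with Igf2, all positive), but these libraries fall into the 2 sets of receptor background given above, so no pooled r is given and relations within the sets could not be tested.

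Genes with the most similar profile to each gene over the 24 libraries of cohort 2 were sought among 22573 genes. These r values mostly reflect the 3 cell types, which the libraries share, and are a description. Ndn was closest to Clec1a (r = 0.977) and to Slamf1 (0.974), the gene of the CD150 marker by which the HSCs were sorted. Cdkn1c was closest to Mmrn1 (0.975), Grb10 to Muc13 (0.989), Igf2r to Maml2 (0.988), Meg3 to Arhgap29 (0.983) and Rian to Abca5 (0.980). Mirg was closest to Kif3c (0.952) and Peg3 to Myo5b (0.942), with the collagen gene Col1a2 also among its closest (0.937). Stromal and endothelial markers, of which Col1a2 is one, summed to 59.0 to 109 CPM in HSCs, up to 240 CPM in CLPs and 37.7 to 78.4 CPM in GMPs, and none of the 9 was at 0 throughout a group. Their part in the Peg3 values was not tested.

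The HSC pattern of these genes can be read beside 60 other imprinted genes, of which 47 passed the filter. In O-WT, 13 were higher and 4 lower in HSCs than in CLPs, where 18.3% and 12.4% of all genes tested were. Against GMPs, 21 were higher and 6 lower, where 23.9% and 22.0% of all genes were. The median log2 differences of the 47 were 0.12 and 0.61. Dlk1, the paternally expressed membrane ligand of the Meg3 locus, was at 37.5, 18.0, 27.2 and 17.1 CPM in O-WT HSCs, and exceeded CLPs by 2.28 (SE 0.34) and GMPs by 3.60 (SE 0.36) on the log2 scale. Rtl1, made antisense to the same locus, differed from CLPs by −0.23 (SE 0.26, not called). Also higher in HSCs than in CLPs were Zrsr1 (1.93), Impact (1.36) and Ppp1r9a (1.34), while Osbpl5 (−0.82), Rasgrf1 (−0.81) and Ddc, the neighbour of Grb10 (−0.92), were lower. Gnas (−0.67), Tssc4 (−0.72) and H13 (−0.75) were lower in HSCs than in GMPs.

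In O-NR, 14 of the other imprinted genes were higher and 7 lower in HSCs than in CLPs (21.3% and 20.4% of all genes). Against GMPs, 18 were higher and 5 lower (21.5% and 25.6% of all genes). Dlk1 was again among the higher (2.45 and 3.78). CLPs against GMPs gave 22 higher and 10 lower in O-WT (35.7% and 25.3% of all genes). In O-NR it was 20 higher and 7 lower (24.3% and 25.7% of all genes). With NR none of the other imprinted genes tested passed an unadjusted p of 0.01 in any cell type or in cohort 1.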

How the data were processed

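Total RNA of sorted cells was sequenced with a SMARTer Stranded Pico v2 kit in 33 libraries. The authors trimmed reads with cutadapt, aligned them with STAR to mm10 (Gencode M22) and counted them with featureCounts, and the deposited values are raw counts per gene symbol. The strand setting is not given in the sources used here. Libraries were not pooled, and each held 4792380 to 23816042 counted reads. No 2 libraries of a group were copies (smallest chi-square per degree of freedom 1.91), but some of cohort 1 were close pairs. O-NR replicates 1 and 2 had 1.91 and replicates 3 and 4 had 3.65, against 48.6 to 66.8 between these pairs. O-NR-RC replicates 2 and 3 had 3.76, against 92.7 and 66.8 with replicate 1. Whether such pairs came from the same mice was not tested, so the libraries of cohort 1 may not be independent.

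The 10 genes were matched by symbol. They and all lists were chosen with earlier results of these data known. Of the HSC marker list, 1 gene is not reported here. Levels are CPM of the counted total. For each comparison, genes above 3 CPM in at least the number of libraries of its smaller group were scaled by TMM and tested with the quasi-likelihood test of edgeR 4.0.16 (R 4.3.3) over all genes. Cell types were called at a Benjamini-Hochberg adjusted p below 0.05 and NR effects at an unadjusted p below 0.01, a threshold of the study used here without the fold change that its methods add. Intervals are 1.96 SE wide to each side. TMM factors of cohort 1 ran from 0.688 to 1.30 over all genes and from 0.965 to 1.05 over genes above 30 CPM, so both other scalings were added after seeing the data, as were the receptor covariate and leaving out the 4 libraries. DESeq2 1.42.0, no filter, a replicate block and each library left out were the other alternatives. Exact permutation tests of single values were two-sided. The scripts were tested on simulated data.

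Named genes are all 10, up to 3 other imprinted genes per direction and comparison with the smallest p, and the most similar genes. Coordinates are of GRCm38 (Gencode M21). Where libraries are not of separate mice, p-values measure technical spread.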

Additional observations from a re-analysis of the deposited data

Results flagged for a closer look

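Of the 70 tests of a gene within a group of 4 libraries, 7 had 1 library far from the other 3, where chance gives about 1 in 20. H19 was at 3.10 CPM in O-WT HSC replicate 1 while the others held 1.54 to 1.73 CPM, and at 1.38 CPM in O-NR HSC replicate 1 while the others held 2.41 to 2.59 CPM. Mirg stood at 12.8 CPM in O-WT HSC replicate 2, above 8.44 to 8.76 CPM. Rian was at 11.2 CPM in O-NR CLP replicate 2, below 21.8 to 23.7 CPM, and Igf2 at 2.92 CPM in O-WT CLP replicate 3, above 0.862 to 1.19 CPM. In GMPs, Meg3 was at 10.7 CPM in O-WT replicate 4, above 5.24 to 6.03 CPM, and Cdkn1c at 0.939 CPM in O-NR replicate 2, above 0.235 to 0.352 CPM. No cause was tested for these values.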

How the results depend on the processing

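The 6 and 8 calls of imprinted genes higher in HSCs than in CLPs and GMPs of O-WT, and the 8 against GMPs in O-NR, kept their direction and their call under each scaling, DESeq2, the replicate block and the receptor covariate. Of the log2 values under alternatives that keep all libraries of cohort 2, or leave out the 4 of cohort 1, 531 kept direction and side of the threshold, 19 lost the call, 10 gained one and 8 changed direction. The count of imprinted genes called between CLPs and GMPs of O-WT fell from 7 to 3 without a filter and to 3 with the receptor covariate, and that of other imprinted genes from 32 to 10 with the covariate, and from 27 to 8 in O-NR. Peg3 in HSCs against CLPs of O-WT turned to 0.13 without a filter, 0.042 in one fit of 24 libraries and 0.33 with the covariate, and ranged from −0.24 to 0.17 with libraries left out in turn.

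For NR in HSCs of cohort 2, 0 imprinted genes were called without a filter and 0 in one fit of 24 libraries, and 2 with the receptor covariate, and 1 other imprinted gene was called without a filter. Of all genes, 22 were lower at an adjusted p below 0.05 with the covariate and 30 without a filter, against 0 in the main fit. In CLPs 1 other imprinted gene was called with the covariate. In cohort 1, 2 imprinted genes were called for O-NR against O-WT without the 4 libraries over 10000 receptor CPM, and 1 other imprinted gene with the covariate. For O-NR-RC against O-NR the covariate gave 1 and 3, and leaving out the 4 libraries gave 1 other imprinted gene. For O-NR-RC against O-WT the covariate gave 1 and 2, and leaving out the 4 libraries 1 and 8. In cohort 1 the covariate called 1.2% to 1.35% of all genes, and leaving out the 4 libraries 1.89% to 10.2%. The Rian value turned to −0.0077 with the replicate block for O-NR against O-WT, and for O-NR-RC against O-WT to 0.034 with upper quartile scaling, 0.18 with library totals and 0.33 with scaling on genes over 30 CPM. Mirg turned to −0.13 there without the 4 libraries. The cause of these changes was not tested.

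For differences of NR effects, leaving out the filter called 1 imprinted gene for HSCs against CLPs (Cdkn1c) and 2 other imprinted genes for HSCs against GMPs. Over both cohorts 1 other imprinted gene was called with scaling on genes over 30 CPM and 1 without the 4 libraries. The difference between cohorts was called for 1 imprinted gene, Rian, with upper quartile scaling, the replicate block, library totals, scaling on genes over 30 CPM and the covariate, where the replicate block also called 12 other imprinted genes and 16.4% of all genes. In cohort 1 that fit rests on O-NR replicates 1 and 2, both over 10000 receptor CPM. No source used here says that a replicate number is an animal. Same-numbered HSC libraries of cohort 2 correlated at −0.263 to 0.588 between treatments, and those of the cell types at −0.469 to 0.354. Between HSCs and CLPs of O-WT all same-numbered pairs were positive (0.114 to 0.354, mean 0.266, against a mean of −0.089 for other pairs). Those of CLPs and GMPs in O-NR were also positive (0.028 to 0.164), while every other comparison of cell types held negative pairs. These values cannot tell whether libraries of the same number came from the same mice. With the replicate block, the log2 fold change of Rian in HSCs of cohort 2 was −0.48 (adjusted p = 0.0574), and Mirg in HSCs against CLPs of O-NR was 0.82 (adjusted p = 0.0597), no longer called.

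When 1 library at a time was left out, the imprinted genes called ranged from 4 to 7 for HSCs against CLPs in O-NR, where Cdkn1c and Ndn no longer reach the filter without an HSC library, from 1 to 2 for NR in HSCs of cohort 2, and from 0 to 1 for both differences of NR effects between cell types. Other imprinted genes called ranged from 0 to 1 for NR in CLPs, for O-NR-RC against O-NR and against O-WT, and for the difference of NR effects between HSCs and GMPs. The Rian value in cohort 1 ranged from −0.028 to 0.26 for O-NR and from −0.23 to 0.084 for O-NR-RC against O-WT, and that of Mirg from −0.0059 to 0.11. Depth limits H19 and Igf2 in all cells and Cdkn1c in progenitors, where libraries held as few as 3 reads of Cdkn1c.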
